A study of Mus musculus with 12 samples.

Results

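Expression of 9 genes of macrophage activation and tissue repair was followed in the mouse cecum during adhesion formation. The genes were Nos2, Mrc1, Retnla, Gpnmb, Trem2, Cd68, Fcgr1, Marco and Il10, chosen by name from the 27248 named genes of the array. They were measured by 11 probes, since Cd68 had 3 probes and each of the other 8 genes had 1. Tissue came from C57BL/6 mice in 4 groups of 3 arrays, namely a sham control and cecum taken 3, 12 or 72 h after cauterization, a heat injury of the bowel wall that leads to adhesions. The methods place the sham control at 0 h, so no sham tissue was matched to the later times, and time cannot be told apart from cauterization at 3, 12 or 72 h. The age of the mice was not given in the sources used here. RNA was hybridised to 1-colour Agilent arrays, on which the brightness of a probe measures 1 transcript. Per array, 60.2% to 65.2% of probes gave a signal well above background. A level is given as log2 signal minus the 75th percentile of the array, so 0 is the level of a fairly bright probe and a step of 1 is a doubling.

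The arrays lay on 2 slides. The sham and 3 h arrays and 2 of the 12 h arrays were on the first slide, and the third 12 h array and all 72 h arrays were on the second. Only that 12 h array lets the effect of the slide be told from that of the 72 h group. The labels name male mice. However, Xist, the RNA that coats the inactive X chromosome of females, was well above background on all 12 arrays, at levels from -0.77 to 0.00, while every probe of the Y-linked genes Ddx3y and Eif2s3y was so on 0 arrays. Of the Y-linked genes Uty and Kdm5d, 1 of 3 Uty probes was above background on 1 array and 1 of 6 Kdm5d probes on all 12. Xist was thus present, and Ddx3y and Eif2s3y were not detected, in each group labelled male. The brightest probe of each of 10 epithelial and 5 smooth muscle genes was well above background on all 12 arrays. The tissue label was thus not contradicted, though these genes cannot tell cecum from other bowel.

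Macrophages take up debris, microbes and lipid, and change their gene expression with the signals around them. Bacterial products and interferon-γ drive classical activation, in which nitric oxide synthase is a hallmark, whereas IL-4 and IL-13 drive alternative activation, in which the mannose receptor and resistin-like molecule alpha are typical genes in mice. In the gut wall, resident macrophages are abundant and clear dying cells, and monocytes from blood join them after injury. During repair, macrophages with lipid receptors and lysosomal proteins clear cell remains and release growth factors.

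At 3 h, 2 of the 9 genes were higher than in the sham control (Nos2 and Il10) and 0 were lower, calling a gene when it differed by more than 2-fold with an adjusted p under 0.05 from limma. Across all named genes, 3.79% were called higher and 4.26% lower in this comparison. At 12 h, 5 genes were higher (Nos2, Cd68, Fcgr1, Marco and Il10), where 4.78% of named genes were, and Retnla alone of the 9 was lower, where 5.59% were. At 72 h, 6 genes were higher (Nos2, Mrc1, Trem2, Cd68, Fcgr1 and Marco) beside 5.56% of named genes, and Retnla was again lower, beside 4.36%. Gpnmb was called in none of these comparisons. The 3 comparisons share the sham arrays. The 9 genes had a median log2 difference of 0.23, 1.37 and 1.98 at these times, against 0.07, -0.01 and -0.13 over all named genes. In bulk tissue, more cells of a type and more RNA per cell cannot be told apart.

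Between 3 and 12 h, 2 genes rose (Cd68 and Fcgr1) and 0 fell, where 2.16% of named genes were called higher and 1.91% lower. Between 12 and 72 h, 3 genes rose (Mrc1, Trem2 and Marco) and Retnla fell, where 5.41% were called higher and 3.44% lower. The step from 12 to 72 h is the one that coincides with the change of slide. With slide as a block this step rests on the single 12 h array of the second slide, and only Trem2 of these 4 genes passed. The differences were then 2.10 for Mrc1, 4.46 for Trem2, 2.09 for Marco and -1.82 for Retnla.

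With normexp, a background correction that leaves dim signals closer together, several differences were smaller. On the log2 scale, Fcgr1 was at 1.60 in place of 2.55 at 12 h and at 2.17 in place of 3.20 at 72 h, and Marco at 2.14 in place of 3.93 at 72 h. Nos2 was at 2.86 at 12 h and Retnla at -3.30 at 72 h, each against the sham control. The step from 3 to 12 h was 1.16 for Fcgr1, and that from 12 to 72 h was 3.74 for Trem2 and -1.49 for Retnla. All of these passed. The balance of calls over all named genes also depended on the processing. The 3 h group had 1032 calls upward and 1161 downward, but 573 and 192 with normexp, and 890 and 1499 when the 75th percentile that scales each array was taken over bright probes only. At 12 h the counts were 1302 and 1522, and 756 and 476 with normexp. Which direction held more genes at these times was therefore not settled.

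**Figure D1:**
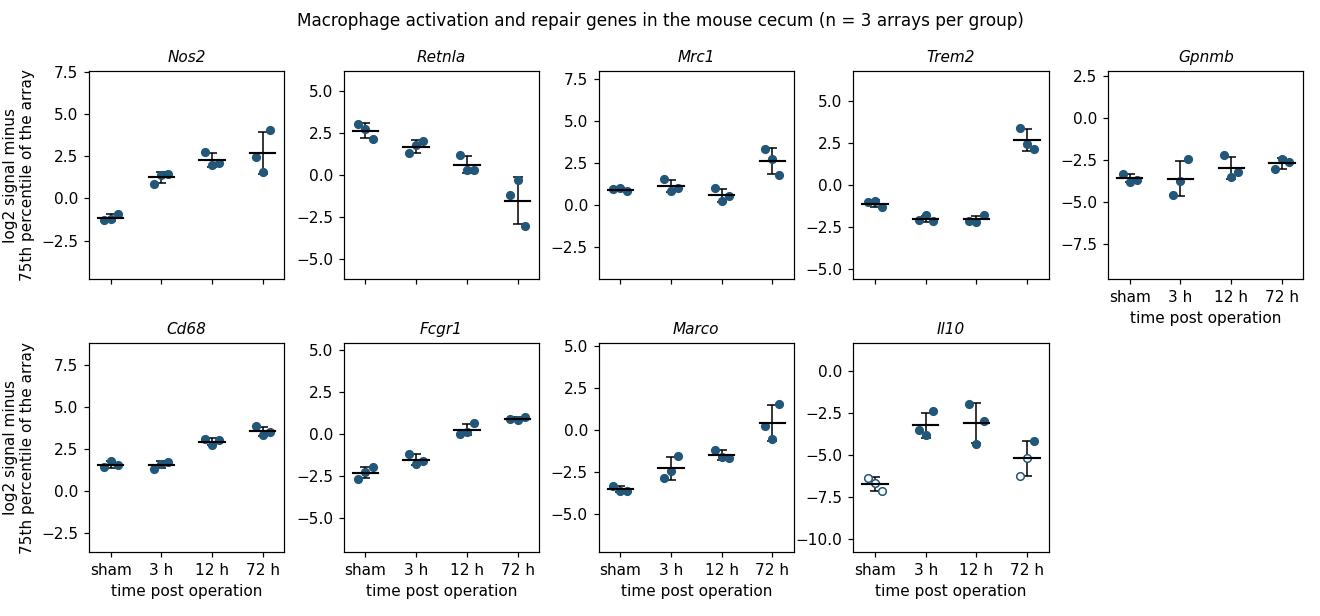
Level of each gene on each array (log2 signal minus the 75th percentile of the array, vertical axis, every panel spanning the same range) by time post operation, with the group mean as a bar and the SD as an error bar (n = 3). Open points are arrays on which the probe was not well above background. Retnla descends with time, and Trem2 is high only at 72 h, from 2.13 to 3.36.

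Nos2 encodes inducible nitric oxide synthase, which makes nitric oxide from arginine and is a mark of classical activation. In the sham control its level was -1.29, -1.22 and -0.92. It was 0.88, 1.39 and 1.47 at 3 h, and 2.79, 1.98 and 2.14 at 12 h. At 72 h it was 2.47, 1.59 and 4.08. All 9 arrays of cauterized cecum lay above the 3 sham arrays, whereas the 12 h and 72 h arrays overlapped. Nos2 was 5.25-fold higher at 3 h (adjusted p = 0.00969), 10.9-fold at 12 h (adjusted p = 0.00116) and 14.5-fold at 72 h (adjusted p = 0.000832). Without 72 h replicate 3 the last of these was 3.17 on the log2 scale in place of 3.86. Neither later step passed the test. The log2 differences were 1.06 from 3 to 12 h (adjusted p = 0.24) and 0.41 from 12 to 72 h (adjusted p = 0.6). The step from 12 to 72 h was -0.27 without 72 h replicate 3. With slide as a block the 72 h difference was 4.11 and no longer passed. Its probe is at chr11:78773567-78773626 on the plus strand of mm9, the mouse genome build of the scanner output.

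Among 13 other genes of arginine transport and metabolism, 6 were called higher at 3 h, 5 at 12 h and 3 at 72 h, and 0 lower. Their median log2 difference was 0.57, 0.74 and 0.22, against the medians of all named genes given above. Slc7a2, a cationic amino acid transporter that brings arginine into macrophages, was not well above background on any sham array. Its fold is therefore a lower bound, taken from the mean of the cauterized group and the mean, over the sham arrays, of the higher of the probe's own level and the lowest level among probes well above background. It was at least 2.64-fold higher at 3 h and at least 3.07-fold at 72 h. Gch1, which makes the tetrahydrobiopterin cofactor of nitric oxide synthases, was higher by 1.39 at 3 h and 1.71 at 12 h on the log2 scale, and Srm, which makes the polyamine spermidine, by 1.14 and 1.29. Nos3, the endothelial synthase, was 2.37-fold, 2.06-fold and 2.64-fold higher at the 3 times.

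Retnla encodes resistin-like molecule alpha, a secreted protein induced by IL-4 and IL-13 in macrophages and also made by other cells. Its level was 3.06, 2.74 and 2.18 in the sham control. It was 1.31, 1.78 and 2.03 at 3 h, and 1.21, 0.33 and 0.32 at 12 h. At 72 h it was -1.19, -0.28 and -3.02. The groups did not overlap and stood in the order of time, with the widest spread at 72 h, where replicate 3 was lowest. The difference at 3 h was -0.95 and did not pass the test (adjusted p = 0.271). Retnla fell by 2.04 at 12 h (adjusted p = 0.0327) and by 4.16 at 72 h, 17.8-fold (adjusted p = 0.00116), and from 12 to 72 h it fell by 2.12 (adjusted p = 0.0324). The 12 h call was lost without sham replicate 1 (-1.84), sham replicate 2 (-2.00), 12 h replicate 2 (-1.90) or 12 h replicate 3 (-1.89). The call of the last step was lost without any of the 12 h arrays, with values of -1.82, -2.26 and -2.27, and without 72 h replicate 1 (-2.27). It held without 72 h replicate 3, where the difference was -1.36, and without 72 h replicate 2, where it was -2.73. With slide as a block the differences from sham were -1.89 at 12 h and -3.70 at 72 h, and neither passed. The 12 h call held in the fit to the first slide alone. In the fit without a block, leaving out 72 h replicate 3 gave -3.40 at 72 h. The probe lies at chr16:48844447-48844506 (plus strand, mm9).

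Of the relatives of Retnla, Retnlg, found in neutrophils and bone marrow, was higher at all 3 times, by 2.99, 3.10 and 2.66 on the log2 scale (adjusted p = 0.000752, 0.000432 and 0.00134). Retnlb, the goblet cell form, differed by 0.24, 0.16 and 0.09 and was not called. Retn, resistin itself and a product of fat cells in mice, was at least 13.04-fold lower at 3 h (adjusted p = 0.0716) and 6.95-fold lower at 12 h (adjusted p = 0.202), with no overlap with the sham arrays, and was not called. At 72 h its difference was 0.50.

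Mrc1 encodes the mannose receptor CD206, which binds sugars on microbes and collagen fragments and is common on resident and alternatively activated macrophages. Its sham levels were 0.95, 0.99 and 0.82. They were 1.56, 0.87 and 1.04 at 3 h, and 1.02, 0.25 and 0.53 at 12 h. The arrays of the sham, 3 h and 12 h groups thus overlapped, and only those at 72 h stood above them, at 3.34, 2.75 and 1.82. Mrc1 was 3.28-fold higher at 72 h than in the sham control (adjusted p = 0.00748) and 4.10-fold higher than at 12 h (adjusted p = 0.00385). The first of these was 1.81 on the log2 scale with slide as a block and did not pass. Mrc1 was measured at chr2:14253273-14253332 (plus strand, mm9).

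Of 20 other genes of alternative activation, 7 were higher at 3 h, 9 at 12 h and 9 at 72 h, while 0, 2 and 1 were lower. Their median log2 difference was 0.38, 0.75 and 1.13. The calls upward include Ccl22 at 3 and 12 h and Chil4 at 12 h, both above background on 0 of 3 sham arrays. Ccl22 was above background on 2 of 3 arrays at 3 h and at 12 h, and Chil4 on 1 of 3 at 12 h. These calls thus rest on values near background. Il1rn, the IL-1 receptor antagonist, was higher by 5.63, 6.29 and 3.73, and Il1r2, the decoy receptor, was 31.9-fold, 78.2-fold and 41.9-fold higher. Chil3, the lectin Ym1 that neutrophils also make, was higher by 2.92, 4.98 and 2.36. Clec10a, a galactose-binding lectin of macrophages and dendritic cells, was lower by 2.68 at 12 h (adjusted p = 0.00823), and at 72 h its difference was 1.39 and not called. Folr2, a folate receptor of resident macrophages, was at -1.47 at 12 h (adjusted p = 0.0215) and at 1.55 at 72 h (adjusted p = 0.018). Ccl17, a chemokine that draws T cells, was the gene of this list called lower at 72 h, with a difference of -2.22 (adjusted p = 0.00886). From 12 to 72 h, 4 of the 20 genes rose and 6 fell, among them Ccl22 and Chil4, above background on 0 of 3 arrays at 72 h.

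Trem2 encodes a lipid receptor that macrophages use to sense lipoproteins and dying cells, and it signals through the adaptor Tyrobp (DAP12). Its level was -1.06, -0.97 and -1.36 in the sham control. It was -2.08, -1.82 and -2.16 at 3 h, and -2.14, -2.22 and -1.83 at 12 h. The 3 h and 12 h arrays overlapped and all lay below the sham arrays, with differences of -0.89 (adjusted p = 0.0495) and -0.94 (adjusted p = 0.037) that were under 2-fold and so not called. The 3 h difference passed with the percentile taken over bright probes only. With normexp the 3 h and 12 h differences were -0.45 and -0.54, and neither passed. At 72 h the level was 3.36, 2.41 and 2.13, above every other array. Trem2 was then 13.6-fold higher than in the sham control (adjusted p = 3.13e-05) and 26.0-fold higher than at 12 h (adjusted p = 5.15e-05). With slide as a block both calls held, at 3.41 and 4.46 on the log2 scale. At 12 h the difference from sham was called at -1.05 without 12 h replicate 3, the one 12 h array of the second slide. It was also called at -1.05 without sham replicate 3, with slide as a block and in the fit to the first slide alone. The probe lies at chr17:48491537-48491596 (plus strand, mm9).

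Gpnmb encodes a lysosomal glycoprotein of lipid-laden and repair macrophages and often accompanies Trem2. It was well above background on all 12 arrays. Its level was -3.30, -3.76 and -3.65 in the sham control, -4.55, -3.74 and -2.45 at 3 h, and -2.19, -3.49 and -3.18 at 12 h. At 72 h it was -3.03, -2.42 and -2.61. The 72 h arrays lay above the sham arrays but within the range of the 3 h and 12 h arrays. The differences from sham were -0.01, 0.61 and 0.89 (adjusted p = 0.989, 0.442 and 0.244), and none was called in any alternative. Gpnmb was measured at chr6:49006386-49006445 (plus strand, mm9).

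Among 20 other genes of lipid handling and lysosomal repair, 3 were higher at 3 h, 5 at 12 h and 7 at 72 h, and 0 were lower. The median log2 difference was 0.18, 0.27 and 0.68. Hmox1, the heme-degrading enzyme, was higher at all 3 times, by 2.91, 3.03 and 3.76. Spp1, which encodes osteopontin, was higher by 3.30 at 12 h and 4.41 at 72 h. Mmp12, the macrophage elastase, was above background on 1 sham array and was at least 1.65-fold higher at 3 h, at least 2.78-fold at 12 h and at least 20.9-fold at 72 h. From 12 to 72 h it rose by 2.91 (adjusted p = 0.000868). Tfec, a transcription factor of macrophages from the family that controls Gpnmb, was not well above background in the sham control. It was at least 2.58-fold higher at 3 h, at least 3.28-fold at 12 h and at least 4.77-fold at 72 h.

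Cd68 encodes a lysosomal membrane protein found in most macrophages. On its brightest probe the level was 1.42, 1.81 and 1.56 in the sham control and 1.34, 1.66 and 1.76 at 3 h. It was 3.09, 2.74 and 3.06 at 12 h, and 3.86, 3.36 and 3.50 at 72 h. The sham and 3 h arrays overlapped, and the later groups stood above them with no overlap. Cd68 was 2.58-fold higher at 12 h (adjusted p = 0.000537) and 3.94-fold at 72 h (adjusted p = 9.08e-05), and it rose 2.60-fold between 3 and 12 h (adjusted p = 0.00232). From 12 to 72 h the difference was 0.61, under 2-fold. The other probes gave 2.86-fold and 2.95-fold at 12 h and 4.34-fold and 4.55-fold at 72 h, and were called in the same 3 comparisons. The 3 probes lie on the minus strand of chromosome 11 in mm9, the brightest at chr11:69477775-69477834.

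Fcgr1 encodes CD64, the high-affinity receptor for IgG on monocytes and macrophages. Its level was -2.66, -2.26 and -1.99 in the sham control and -1.20, -1.81 and -1.62 at 3 h. It was 0.01, 0.12 and 0.62 at 12 h, and 0.87, 0.80 and 1.01 at 72 h. The 4 groups did not overlap. The 3 h difference was 0.76 (adjusted p = 0.0386), under 2-fold and not called. Fcgr1 was 5.87-fold higher at 12 h (adjusted p = 6.22e-05) and 9.19-fold at 72 h (adjusted p = 2.31e-05), and rose 3.46-fold between 3 and 12 h (adjusted p = 0.00211). The last step, 0.65 on the log2 scale, did not pass (adjusted p = 0.0734). Fcgr1 was measured at chr3:96088462-96088521 (minus strand, mm9).

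Partners of these receptors were then examined. Of 13 genes for adaptors, kinases, Fc receptors and TREM relatives, 3 were higher at 3 h, 8 at 12 h and 7 at 72 h, and 0 were lower, with a median log2 difference of 0.68, 1.27 and 1.14. Fcer1g, the signalling chain that Fcgr1 needs, was higher by 1.24, 3.45 and 3.02. Fcgr3 and Fcgr4, the activating receptors of lower affinity, were higher by 1.64, 2.87 and 3.18 and by 1.19, 3.01 and 3.33. Treml4, a TREM relative that binds dying cells, was higher by 4.22 at 12 h (adjusted p = 0.000379) and 3.12 at 72 h. Tyrobp, the adaptor of Trem2, was higher by 2.67 at 12 h and by 3.03 at 72 h. Its values lie outside the naming rule and were chosen after they were seen.

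Marco encodes a scavenger receptor for bacteria and particles. Its level was -3.33, -3.65 and -3.65 in the sham control. It was -2.90, -2.44 and -1.55 at 3 h, and -1.20, -1.63 and -1.71 at 12 h. At 72 h it was 0.21, -0.58 and 1.51. Every array of cauterized cecum lay above the sham arrays, the 3 h and 12 h arrays overlapped, and the 72 h arrays stood highest. The 3 h difference was 1.25 and did not pass (adjusted p = 0.101), except without 72 h replicate 3. Marco was 4.09-fold higher at 12 h (adjusted p = 0.0138) and 15.2-fold at 72 h (adjusted p = 0.000569). From 12 to 72 h it rose 3.72-fold (adjusted p = 0.023). The 12 h call was lost with normexp (0.75) and without 12 h replicate 1 (1.87), and that of the last step without 12 h replicate 2 (1.83), 12 h replicate 3 (1.79) or 72 h replicate 1 (1.98). For its probe the scanner output gives only a stretch of 20 bases, chr1:122371115-122371134 (minus strand, mm9).

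Of 11 other scavenger and mannose receptors, 2 were higher at 3 h, 2 at 12 h and 4 at 72 h, while 1, 0 and 1 were lower, and 6 rose between 12 and 72 h. The median log2 difference was -0.40, -0.43 and 1.09. Msr1, the class A scavenger receptor, was higher at all 3 times, by 2.10, 3.27 and 2.82, as was Olr1, the receptor for oxidised lipoprotein, by 3.25, 3.31 and 2.37. Mrc2, the collagen-binding relative of Mrc1 that fibroblasts also express, was called at 72 h alone, at 1.83 (adjusted p = 0.00197). Scara3 was at -1.39 at 3 h and 1.09 at 72 h, called both times. Ly75, a receptor of dendritic cells, was lower at 72 h, with a difference of -1.06.

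Il10 encodes IL-10, a cytokine that restrains inflammatory macrophages. Its level was -6.33, -6.66 and -7.14 in the sham control, not well above background on any array. It was -3.49, -3.78 and -2.36 at 3 h and -1.95, -4.34 and -2.94 at 12 h, above background on all 6. At 72 h it was -6.23, -5.17 and -4.12, above background on 1 of 3 arrays. The 3 h and 12 h arrays overlapped and lay above the sham arrays. The 72 h arrays overlapped those of 12 h, and their place against the sham arrays cannot be read from values near background. Il10 was at least 3.51-fold higher at 3 h (adjusted p = 0.00549) and at least 3.85-fold at 12 h (adjusted p = 0.00361). The 72 h group did not pass against the sham control (adjusted p = 0.14), and the decline from 12 to 72 h, at least 3.29-fold, fell short of the threshold (adjusted p = 0.0544). That decline passed without 12 h replicate 2 or without 72 h replicate 3, and also with dim probes filtered out and with the trend and robust options of eBayes. With normexp, the 3 h and 12 h differences were 0.52 and 0.50 and were not called. The probe lies at chr1:132920943-132921002 (plus strand, mm9).

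In the IL-10 pathway, 3 of 9 genes were higher at 3 h, 2 at 12 h and 1 at 72 h, and 1 was lower at 72 h. The median log2 difference was 0.32, 0.65 and 0.31. The gene called lower, Il20, was above background on 2 of 3 sham arrays and on 0 of 3 at 72 h. Its call thus rests on values near background. Il10ra, the chain of the receptor that binds IL-10, was higher by 1.23, 2.22 and 2.14. Stat3, the transcription factor downstream, was higher by 1.28 at 3 h (adjusted p = 8.8e-05), and its later differences of 0.92 and 0.63 were under 2-fold. Il22, a relative of Il10 that acts on epithelium, was above background on 1 sham array and was at least 107.5-fold higher at 3 h and at least 23.6-fold at 12 h. At 72 h it was above background on 2 of 3 arrays and was not called.

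The cytokines that drive alternative activation were then examined. Of 10 genes of type 2 cytokines and their receptors, 4 were higher at 3 h, 2 at 12 h and 3 at 72 h, and 0 were lower, with a median log2 difference of 0.49, 0.57 and 0.51. Il4, though above background on all arrays, differed from sham by 0.47, 0.71 and 0.55 and was not called. Il13 was not called and was above background on 3 of 3 sham arrays, 2 of 3 at 3 h, 2 of 3 at 12 h and 1 of 3 at 72 h, and Il25 was not above background on any array. These 3 genes lie outside the naming rule and were chosen after their values were seen. Il33, an alarmin released by damaged cells, was higher at all 3 times, by 3.23, 3.60 and 3.43. Il4ra, the receptor chain that IL-4 and IL-13 share, was higher by 1.55, 1.99 and 2.11. Tslp, an epithelial cytokine, was higher by 2.53 at 3 h, and its difference at 12 h was 0.16. Il1rl1, the receptor for IL-33, was higher by 2.16 at 3 h, and its difference of 1.38 at 12 h did not pass (adjusted p = 0.0678).

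Genes of classical activation were counted in the same way. Of 16, 10 were higher at 3 h, 11 at 12 h and 9 at 72 h, and 0 were lower, with a median log2 difference of 2.60, 3.37 and 1.94. Il1b was higher by 6.74, 8.35 and 7.36, and Il6 by 7.61, 6.75 and 7.20. Irg1, which makes itaconate in activated macrophages, was higher by 6.36, 7.92 and 6.37, and the formyl peptide receptor Fpr2, also found on neutrophils, by 4.55, 6.16 and 5.27. From 12 to 72 h 0 of the 16 rose and 3 fell.

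Of 12 growth factors made by macrophages, among other cells, 6 were higher at 3 h, 7 at 12 h and 8 at 72 h, and 0 were lower, with a median log2 difference of 1.37, 1.27 and 1.24. Il1a was not well above background in the sham control and was at least 14.4-fold, 45.1-fold and 18.5-fold higher at the 3 times. Osm, which encodes oncostatin M, was higher by 6.03, 7.33 and 5.47, and Thbs1, a matrix protein that activates TGF-β, by 3.77, 4.58 and 3.43. Areg, an epidermal growth factor relative, was higher by 3.49 at 3 h and 1.87 at 12 h but not at 72 h, at -0.11. In contrast, Igf1 was called at 72 h alone, at 2.16 (adjusted p = 0.0036). So were Fn1 at 1.61, Pdgfb at 1.34 and Csf1 at 1.05, although Csf1 was already at 0.91 at 3 h and at 12 h. Igf1, Fn1, Pdgfb and Csf1 were chosen after their values were seen.

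**Figure D2:**
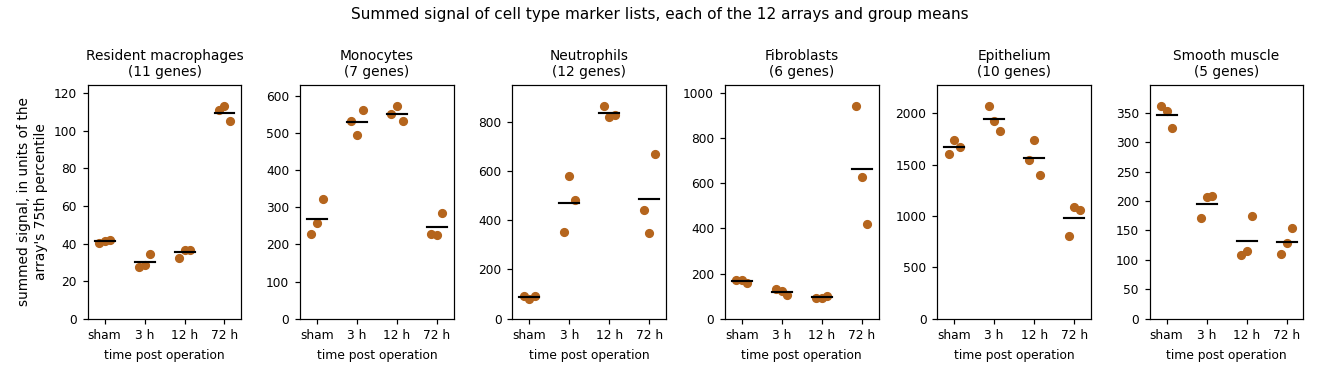
Summed signal of marker genes of 6 cell types on each of the 12 arrays (points) with group means (bars), in units of the array's 75th percentile, on linear axes that start at 0. The resident macrophage sum stays from 27.6 to 42.0 up to 12 h and is 105 to 113 at 72 h, the neutrophil sum is highest at 12 h, and the fibroblast sum is highest at 72 h.

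Markers of several cell types changed over the same times, and their part in the changes above was not tested. The brightest marker of each list over all arrays together is named, although the brightness of different probes does not rank genes by abundance. Of 11 resident macrophage markers, 0 were called higher at 3 h, 1 was at 12 h and 7 were at 72 h, whereas the number called lower was 2, then 1, then 0. Their summed signal, in units of the array's 75th percentile, was 40.5, 41.1 and 42.0 in the sham control and 27.6, 28.6 and 34.6 at 3 h. The 12 h arrays gave 32.5, 36.4 and 36.8 and the 72 h arrays 111, 113 and 105, and Csf1r was the brightest marker. The rise at 72 h therefore stood apart from all other arrays, as it did for Trem2 and Mrc1. Cx3cr1, the fractalkine receptor, was the marker with the deepest early loss, at -2.79 at 3 h and -1.21 at 12 h, while Adgre1, a classic macrophage marker, was higher by 1.21 at 12 h and 2.66 at 72 h. At 72 h C1qb was higher by 1.61 and Csf1r by 1.51. Mertk was at -1.03 at 3 h and at -0.77 at 72 h, the latter under 2-fold and not called. Cx3cr1, Timd4 and Lyve1 were at 0.58, 0.27 and 0.19 at 72 h and were not called either. Vsig4 was above background on 2 of the 12 arrays, both at 72 h.

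Of 7 monocyte markers, 1, 4 and 3 were higher at the 3 times. The sum was 229, 257 and 323 on the sham arrays, 533, 496 and 561 on those of 3 h, 552, 572 and 533 on those of 12 h and 228, 226 and 285 on those of 72 h. Plac8, which is not limited to monocytes, was the brightest, and Fcnb was not above background on any array. Ccr2, the receptor that draws monocytes from blood, was higher by 2.47 at 12 h and 3.38 at 72 h, while Ly6c2 was higher by 2.29 at 3 h and 2.55 at 12 h and stood at 0.04 at 72 h. Vcan was higher by 2.17 and 3.04, and F13a1 by 1.27 and 2.12, at 12 and 72 h.

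Of 12 neutrophil markers, 7, 9 and 7 were higher. Their sum was 90.3, 79.0 and 90.7 on the sham arrays, 352, 580 and 481 on those of 3 h, 863, 819 and 828 on those of 12 h and 443, 348 and 670 on those of 72 h. S100a9 was the brightest, but in the sham control Csf3r was. S100a9 was higher by 10.06, 10.85 and 10.07, S100a8 at least 4521.5-fold at 12 h, Stfa2l1 at least 497.9-fold, and the chemokine receptor Cxcr2 at least 220.9-fold. Not all markers stayed high. From 12 to 72 h, 3 of the 12 fell (Ly6g, Ngp and Ltf) and 1 rose (Mpo). Ly6g fell by 3.72 in that step and stood at -0.08 against the sham control at 72 h. Csf3r was at -0.44, -0.34 and -0.40 at the 3 times and was not called. Among the 72 h arrays, replicate 3 had the highest neutrophil sum, the highest Nos2, Marco and Il10, and the lowest Retnla, Mrc1 and Trem2. Whether these share a source was not tested.

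Of 7 genes listed for macrophages of the peritoneal cavity, 2, 2 and 4 were higher. Their sum was from 11.6 to 12.5 in the sham control and from 22.2 to 42.3 at 72 h, with Cd93 the brightest. The 4 genes called at 72 h are also expressed by other cells. Selp, an adhesion molecule of endothelium and platelets, was higher by 4.15, 3.42 and 3.32, Prg4, a lubricant of joints and serosa, at least 64.2-fold at 3 h, Cd93 by 1.87 at 72 h and Icam2 by 1.06 at 72 h. Garnl3, like Cd93, rose in the last step, by 1.14. Alox15, above background on 2 of 3 arrays at 12 h, rose at least 3.67-fold in that step. Alox15 lay above the sham arrays at 72 h with no overlap, but its difference of 1.71 did not pass (adjusted p = 0.11). Gata6, the factor that defines the large peritoneal macrophage but is also found in epithelium, was above background on all arrays and was not called, with a difference of -0.48 at 12 h.

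Eosinophil, T cell and B cell markers were called in 0 of the 3 comparisons with the sham control by limma. Eosinophils are a main source of IL-4 in tissue, and Epx, their peroxidase, was not above background on any array. The sum of the 5 eosinophil markers was 0.603, 0.648 and 0.717 on the sham arrays, 0.56, 0.838 and 0.668 on those of 3 h, 1.2, 1.11 and 0.577 on those of 12 h and 1.26, 1.55 and 1.24 on those of 72 h, with Siglecf the brightest. The 72 h sums thus lay above every sham sum. Siglecf, Ccr3 and Il5ra were above their sham arrays at 72 h with no overlap, by 0.99 (adjusted p = 0.0365), 1.35 (adjusted p = 0.0644) and 0.84 (adjusted p = 0.0149), and none passed both thresholds. That of 6 T cell markers was from 7.09 to 19.5, Lck being the brightest, and that of 5 B cell markers from 1.13 to 29.2, with Cd79b the brightest. The B cell sum had its widest relative spread at 3 h. Of 6 mast cell markers, 1 was higher at 3 h and 3 at 72 h, namely Cma1 by 3.17, Cpa3 by 1.71 and Tpsb2 by 1.45, in a sum from 2.99 to 7.45. Kit was the brightest.

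Of 6 fibroblast markers, 4 were lower at 12 h and 5 higher at 72 h, where Col1a1 was higher by 3.00, Col3a1 by 2.08, Col1a2 by 2.02 and Lum by 1.47. The sum was from 160 to 172 in the sham control, from 91.8 to 99.2 at 12 h and 940, 625 and 420 at 72 h. Col1a2 was the brightest over all arrays together but not in each group. Of 5 mesothelial markers, Upk3b and Lrrn4 were not above background on any array at 3 and 12 h, and both were above background on all arrays of the sham control and at 72 h. Upk3b was at least 5.39-fold and 5.64-fold lower at 3 and 12 h, and Lrrn4 at least 4.81-fold and 5.03-fold. Wt1, in contrast, was higher by 4.40 at 72 h. The sum of the list was from 141 to 365, with Krt19 the brightest, which epithelium also expresses.

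All 5 smooth muscle genes were lower at 12 h and 4 at 72 h, with Myh11 at -1.54 and -2.29, Cnn1 at -1.39 and -1.95, Des at -1.21 and -1.55, and Acta2 at -1.52 at 12 h. Their sum was from 324 to 361 in the sham control and from 110 to 154 at 72 h, with Acta2 the brightest. Of 10 epithelial genes, 1 was lower at 12 h and 3 at 72 h, with Slc26a3 at -1.81 and -1.59, and Car1 at -1.63 and Cdx2 at -1.01 at 72 h. That sum was from 1610 to 1740 in the sham control and from 807 to 1090 at 72 h, with Krt8 the brightest. Of 7 endothelial genes, Cdh5 was higher at 72 h, by 1.76, and 0 were lower, and their sum was from 5.55 to 15.7, with Vwf the brightest. The share of the tissue that each cell type made up was not measured.

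The genes with courses most like those of the 9 genes were found by Pearson's correlation over the 12 arrays, among 18505 named genes above background on at least 6 arrays. The arrays form 4 groups, and so r mainly reflects the order of the group means and has no test here. Nos2 was most like 3 stefins, the protease inhibitors Stfa3, Stfa2 and Stfa1 (r = 0.98, 0.98 and 0.97), which mouse neutrophils make in quantity. Trem2 was most like Gm1673, Cthrc1, a secreted protein of fibroblasts in injured tissue, and the carboxypeptidase gene Cpz, with r = 0.99 for each. Mrc1 was most like Lamc1, a laminin chain, Gprc5b and Mdk, the growth factor midkine (r = 0.96 for each).

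Cd68 was most like Ubtd1, Pstpip1 and Dennd5a (r = 0.98 for each), and Fcgr1 most like the C-type lectins Clec4b1 and Clec4a1 (r = 0.98 and 0.97) and Igfbp5 (r = 0.97). Marco was most like Dtx2, the inhibitory receptor Fcgr2b and Cybb, a subunit of the phagocyte oxidase (r = 0.96, 0.95 and 0.95). Il10 was most like Birc3, Tnfaip3 and Casp4 (r = 0.97, 0.97 and 0.96), of which Birc3 and Tnfaip3 are known targets of NF-κB. The r values of Il10 rest in part on values near background, in the sham control and on all but 1 array at 72 h. Gpnmb was most like Arhgap15, Sh2b3 and Il2rg (r = 0.92, 0.92 and 0.91). Retnla, which fell, was most like 1700072B07Rik, 1700003I22Rik and Gm16159 (r = 0.95 for each), which have no role that is well known.

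Promoters of 7 of the 9 genes, from 250 bases before to 50 after a RefSeq start on GRCm38.p6, were searched for motifs, and those of Nos2 and Il10 were not analysed here. On both strands, the STAT6 motif (TTC, 4 free bases, GAA) was present in Retnla alone of the 7, and in 6.95% of 32851 promoters. The general STAT motif (TTC, 3 free bases, GAA) was in Fcgr1 alone, and in 8.3% of promoters. The C/EBP motif (TTGC, 2 free bases, AA) was in Retnla, Trem2 and Cd68 (10.8% of promoters), and the AP-1 motif TGANTCA in Gpnmb, Trem2 and Cd68 (7.81%). The M-box CATGTG was in Mrc1, Retnla, Fcgr1 and Marco (14.2%), and the PU.1 motif GAGGAA in 6 of the 7, all but Gpnmb (28.3%). The E-box CACGTG (7.15%) and the NF-κB motif (GGGACT, 1 free base, TCC; 0.432%) were in 0 of the 7. A match is a description of the letters and not a site of binding.

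The 250 bases before the start are shown for Retnla, which fell, and for Cd68, Trem2 and Fcgr1, which rose, with matches to the STAT6, STAT, C/EBP and AP-1 motifs in capitals. They lie at chr16:48842359-48842608 on the plus strand for Retnla, chr11:69666171-69666420 on the minus strand for Cd68, chr17:48346151-48346400 on the plus strand for Trem2 and chr3:96293970-96294219 on the minus strand for Fcgr1. The same 8 letters of the C/EBP motif, TTGCTAAA, stand in the promoter of Retnla, next to the STAT6 match, and in that of Cd68. The C/EBP match of Trem2 lies after its start and is not shown.
Retnla: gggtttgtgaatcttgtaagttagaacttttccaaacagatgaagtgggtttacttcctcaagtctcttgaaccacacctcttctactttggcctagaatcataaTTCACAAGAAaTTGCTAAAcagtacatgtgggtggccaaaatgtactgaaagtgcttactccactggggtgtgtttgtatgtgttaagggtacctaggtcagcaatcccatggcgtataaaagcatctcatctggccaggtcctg
Cd68: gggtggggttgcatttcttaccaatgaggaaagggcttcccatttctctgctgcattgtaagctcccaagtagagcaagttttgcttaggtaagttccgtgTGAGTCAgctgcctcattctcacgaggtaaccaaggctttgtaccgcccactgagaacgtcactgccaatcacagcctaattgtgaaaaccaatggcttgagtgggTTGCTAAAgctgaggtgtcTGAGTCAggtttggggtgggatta
Trem2: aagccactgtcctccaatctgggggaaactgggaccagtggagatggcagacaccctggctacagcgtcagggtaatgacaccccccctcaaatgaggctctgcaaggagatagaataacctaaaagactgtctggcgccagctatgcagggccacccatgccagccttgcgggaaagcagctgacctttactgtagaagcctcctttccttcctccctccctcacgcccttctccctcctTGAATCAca
Fcgr1: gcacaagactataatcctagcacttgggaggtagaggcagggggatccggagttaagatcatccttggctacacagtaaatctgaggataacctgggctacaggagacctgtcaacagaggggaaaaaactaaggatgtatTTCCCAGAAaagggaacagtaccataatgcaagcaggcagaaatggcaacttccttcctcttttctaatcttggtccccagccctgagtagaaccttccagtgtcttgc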

How the data were processed

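Total RNA from mouse cecum was measured on 12 Agilent 1-colour mouse expression arrays (design 8x60K), grouped by the treatment in the labels. The authors deposited the scanner output of Agilent Feature Extraction 11.5.1.1, with a background-corrected intensity per spot that was not normalized between arrays. A second deposited file held log2 values that the authors had brought to the 75th percentile in GeneSpring, and its values show a centring on the median of each row that the methods do not explain. The column medians of that file were from -0.18 to 0.13. Its row-centred values had a correlation of 0.999998 with those computed here across probes, which are not independent.

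From the processed signals, the level of a probe was computed as its log2 intensity after subtracting each array's own 75th percentile. Control spots (3671 of 62976) and spots flagged as outliers (53 to 152 per array) were left out, 98 probe values with only flagged spots were kept, and spots of 1 probe were averaged. No spot was saturated. For 56605 probes, limma 3.58.1 under R 4.3.3 estimated the group means from all 12 arrays, using lmFit, then contrasts.fit, then eBayes, with Benjamini-Hochberg adjustment over all of them. Calls needed more than a 2-fold difference with an adjusted p under 0.05 on the gene's brightest probe. No filter on dim probes was used, and 8 of the 9 genes were well above background on all arrays. The scanner output named the gene of 46291 probes, and 10314 probes without one were not counted as genes. The marker Trac was not found by name. Tables were made with Python 3.11.15, pandas 2.3.3 and the R package data.table (version 1.17.8), and plots with matplotlib 3.10.9. The fits were tested on simulated data.

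The genes and lists were chosen with earlier results of these data known. A gene of the set, a marker and a listed gene are not reported here. Named are the 9 genes, up to 4 called genes per list detected on every array of at least 1 group, by the largest called change against sham, those called against the direction of most of their list, the 3 most alike genes per member by Pearson's correlation, and genes that check tissue and sex. Outside this rule, and named after their values were seen, are Tyrobp, Il4, Il13, Il25, Igf1, Retn, Retnlb, Gata6, Vsig4, Garnl3, Alox15, Ccr3, Il5ra, Epx and Fcnb. So are Ly6g, Ngp, Ltf, Mpo, Csf3r, Timd4, Lyve1, Fn1, Pdgfb, Csf1, Il20, Ccl22 and Chil4. With 3 arrays in each group, precision is limited. Alternatives were a 75th percentile taken over bright probes only (those well above background throughout), quantile normalization, the authors' values, normexp (offset 50), a filter on dim probes, outlier spots kept, a block for slide or for replicate number, trend and robust in eBayes, only the groups compared, Student's paired t-test (given in the methods for comparisons of 2 groups, while no test is named for the arrays), averaging a gene's probes, no fold change threshold and leaving out each array. Fits within each slide were chosen after seeing the data.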

Additional observations from a re-analysis of the deposited data

Results flagged for a closer look

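The difference from the sham control changed between times for 6 of the 9 genes, tested as the difference between the later and the earlier group in the same limma fit. From 3 to 12 h the log2 difference was 1.38 for Cd68 and 1.79 for Fcgr1. From 12 to 72 h it was 2.04 for Mrc1, 4.70 for Trem2, 1.89 for Marco and -2.12 for Retnla. The later step coincides in part with the change of slide, and with slide as a block Trem2 alone passed. Groups of 3 arrays were not tested for single arrays that stand apart.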

How the results depend on the processing

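Of 45 differences of single genes (9 genes in 5 comparisons), 21 were called. Of these, 10 were lost with no alternative other than a paired t-test after Benjamini-Hochberg adjustment, and 11 with at least 1 other. No called difference reversed, and 6 uncalled ones passed in at least 1 alternative. The paper names no test for its arrays. Its paired t-test for comparisons of 2 groups, applied here by replicate number, called 0 genes in each of the 5 comparisons after adjustment, and at an unadjusted p it called 2 genes in the step from 12 to 72 h, where 4 were called in the fit over all arrays. With slide as a block, 4 genes in place of 7 were called at 72 h against the sham control and 1 in place of 4 from 12 to 72 h. This last count was 0 within the second slide alone, with 1 array of 12 h assumed to vary like the others, and 2 with only the 12 h and 72 h arrays in the fit. At 3 h, 4 genes in place of 2 were called with no fold change threshold and 1 with normexp. The fits within a slide or of 2 groups also held fewer arrays, and the cause of these changes was not tested.

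Leaving out 1 array gave 2 to 3 genes at 3 h, 5 to 7 at 12 h, 7 at 72 h, 2 from 3 to 12 h and 2 to 5 from 12 to 72 h. The replicate number as a block gave the same counts as the fit without it, 2, 6, 7, 2 and 4. The numbers pair no samples by the data, since deviations from the group means correlated above 0.1 in 0 of 18 same-numbered pairs, with r from -0.16 to 0.09. With quantile normalization the median of all named genes at 72 h against sham was -0.01 in place of -0.13. Signal over background limits Il10 in the sham control and at 72 h, where values near background have no exact fold.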
